A study of Homo sapiens with 4 samples.

Results

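The protocadherin genes of SAS cells, a cell line from a human tongue squamous cell carcinoma, were described on 4 Clariom D arrays. They form a control pair and an overexpression pair, the latter from cells made to express C6orf141, with 2 arrays in each. The members were chosen by name, from rows of the array table that carry exactly 1 protocadherin symbol and no pseudogene. Where a gene had more than 1 row, the one with the highest mean signal over the 4 arrays stood for it. This gave 29 of 33616 genes, 16 of the beta cluster and 13 that lie outside the protocadherin clusters. Interest in the family began with PCDHB11, which was picked from these arrays for the gap between its control arrays, and that gap is therefore given as a description. The overexpression cells were transfected for 48 h with full-length C6orf141 in the vector pLVX-IRES-Neo and selected for 14 days with 1200 μg/mL of G418. The control arrays are labelled as scrambled controls. Neither the labels nor the methods for the arrays say which vector the control cells carried or whether they went through G418 selection, and whether the overexpression line was a clone or a pool is not stated either. All cells were kept in Dulbecco's medium with 10% serum. No source states whether the 2 arrays of a pair stem from different cultures. The p-values therefore reflect the scatter of these arrays alone, and that scatter may be technical.

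Protocadherins are the largest branch of the cadherin superfamily, a set of calcium-dependent adhesion proteins of the cell surface. Most are best known from neurons, where the alpha, beta and gamma clusters on the long arm of chromosome 5 give each cell its own mix of isoforms and let branches of 1 cell tell themselves from those of others. Each variable exon of the clusters has a promoter of its own, which is chosen by CTCF and cohesin looping and silenced by DNA methylation. The beta genes have a single coding exon and lack the shared cytoplasmic exons that alpha and gamma genes splice to. The protocadherins outside the clusters are grouped as delta-1, delta-2 and others, and several of them act in epithelia as well as in the brain.

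The promoters of the beta genes are shown first, since most of them share a short run of letters. With the runs laid on each other and no gaps, median identity was 34.2% over the 78 pairs of promoters that hold the run. A comparison without gaps cannot tell how alike promoters are where bases were inserted or lost. RefSeq promoters of GRCh38.p14, with 250 bases before and 50 after the annotated start, were found for 14 of the 16 beta genes, and none was found for PCDHB6 and PCDHB11. The longest run of letters shared by the most beta promoters was GGTGGCGCT, in 13 of these 14. Since it was found in these promoters, its share among them is a description. It ends in CGCT, the core known from the conserved sequence element of clustered protocadherin promoters. Searched on both strands, it was in 0.501% of all 35116 promoters of the same length, in 0 of 13 alpha promoters, 0 of 20 gamma promoters and 0 of 10 promoters of members outside the clusters. The run was picked from beta promoters and searched as an exact match. The counts in other promoters thus cannot tell whether those hold the conserved sequence element. In PCDHB1 the closest stretch differed by the substitution C6T, counted from 1 at the 5′ end of the run. The stretches below are from the plus strand of chromosome 5, with the run, or its closest stretch in PCDHB1, in capitals. The first 4 belong to genes with an array signal above background, among them the near-identical PCDHB8 and PCDHB13, and the last 2 to genes not above it.
PCDHB12 (chr5:141208634-141208683): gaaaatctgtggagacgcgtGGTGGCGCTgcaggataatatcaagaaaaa
PCDHB9 (chr5:141187065-141187114): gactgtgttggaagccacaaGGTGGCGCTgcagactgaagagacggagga
PCDHB8 (chr5:141177768-141177817): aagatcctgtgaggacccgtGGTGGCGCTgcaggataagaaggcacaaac
PCDHB13 (chr5:141213856-141213905): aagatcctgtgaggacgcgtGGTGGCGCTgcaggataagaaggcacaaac
PCDHB15 (chr5:141245305-141245354): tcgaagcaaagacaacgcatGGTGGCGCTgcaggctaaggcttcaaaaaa
PCDHB1 (chr5:141051328-141051377): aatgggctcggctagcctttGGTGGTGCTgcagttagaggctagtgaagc

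The run began between positions −84 and −2 from the annotated start, with a median position of −66. Of the 13 beta genes with the run, 7 had an array signal above the background level, defined below, and 6 had not. Of all 16 beta genes 9 were above it, and of all genes 48.2%. With the run in 13 of 14 beta promoters, genes with and without it cannot be compared. With the runs laid on each other and no gaps, the promoters of PCDHB8 and PCDHB13 were identical at 243 of 259 bases, or 93.8%, while the next most alike of the 78 pairs, PCDHB9 and PCDHB10, reached 44.2%. The beta promoters were poor in G and C, with a median of 40.8% and a range from 33.3% to 46.3%. The 10 promoters of members outside the clusters had a median of 57.5%, and all promoters had 58.7%. Coding exons of beta genes are known to be alike, so array signals of near copies such as PCDHB8 and PCDHB13 may hold RNA of each other. This was not tested.

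**Figure D1:**
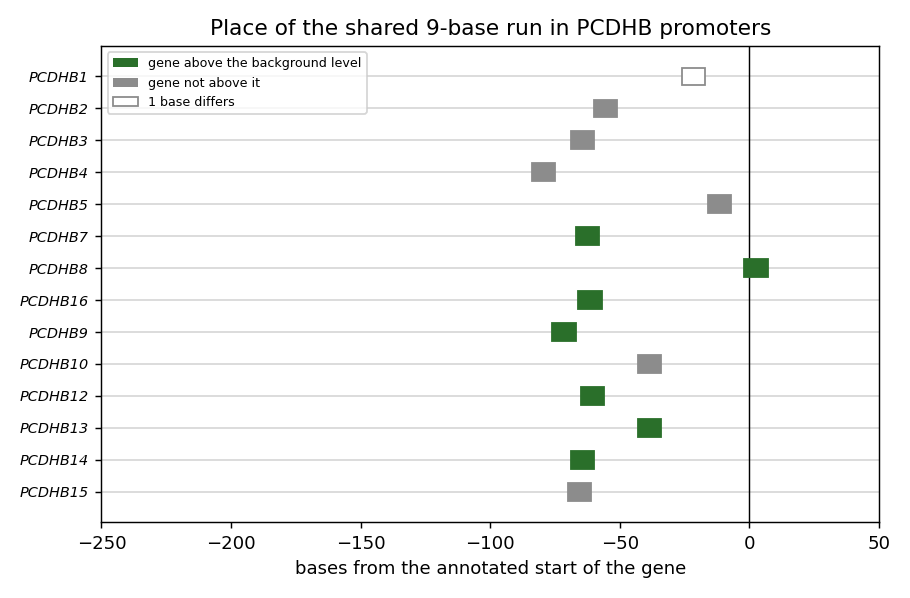
Place of the shared 9-base run in the promoters of 14 PCDHB genes, in order along the cluster, on an axis of bases from the annotated start. Green boxes are genes with an array signal above the background level, grey boxes are genes not above it, and the open box of PCDHB1 marks a stretch with 1 differing base.

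The table holds no detection calls. The background level was therefore taken as the 95th percentile of the mean log2 signal of 400 olfactory receptor genes, at 5.81. Of the 29 protocadherins 12 had a mean above it, or 41.4%, against 48.2% of all genes. In the beta cluster there were 9 of 16, among the delta-1 genes 2 of 5, among the delta-2 genes 1 of 5, and of PCDH12, PCDH15 and PCDH20 none. Only 4 members, PCDH1, PCDH7, PCDHB11 and PCDHB12, also lay above 7.54, below which 95% of the 612 negative control rows fell. The signal of one row cannot be set against that of another row as an amount of RNA, so the genes are not ranked by it. The members closest above the background level were PCDHB6, PCDHB14 and PCDH18 with means of 5.87, 6.03 and 6.08. Those closest below it were PCDHB2, PCDHB10 and PCDHB4 with 5.64, 5.57 and 5.39.

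**Figure D2:**
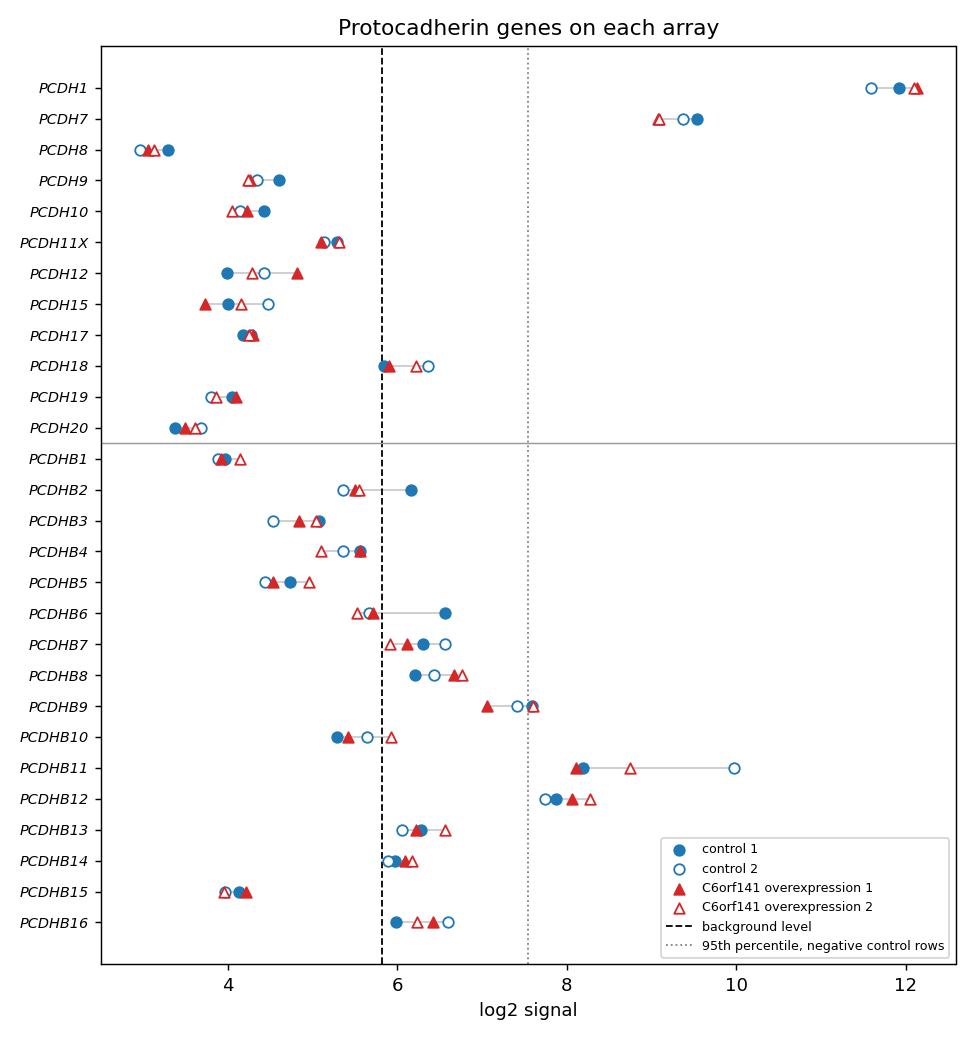
Log2 signal of 28 protocadherin genes on each of the 4 arrays, with the genes outside the clusters above the line and the beta genes below it. The dashed line is the background level at 5.81, the dotted line is the 95th percentile of the negative control rows at 7.54, and the open circle of PCDHB11 at 9.97 lies far from its other 3 points.

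The label of the cells was checked against marker genes. All 6 measured markers of squamous keratinocytes, such as KRT5 and DSG3, were above the background level, against 2 of 9 for neurons (MAP2 and SYT1), 2 of 6 for fibroblasts (COL1A1 and COL1A2), 0 of 5 for endothelium and 2 of 5 for leukocytes (CD3E and CD68). Of the markers above that level, KRT14, MAP2, COL1A2 and CD3E lay below 7.54, the 95th percentile of the negative control rows. Their means were 7.29, 7.40, 6.93 and 5.87. The neuronal markers RBFOX3, SNAP25 and STMN2 had means below the background level. The median signal of the neuronal markers measured ranged from 4.76 to 5.04 over the 4 arrays. C6orf141 itself had log2 signals of 8.57 and 7.92 in control cells and 11.36 and 12.04 under overexpression. The control arrays differed from each other more than the overexpression arrays did, with 2.47% of all genes over 2-fold apart between them against 0.934%.

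C6orf141 overexpression was compared with control cells with limma across all genes. None of the 29 protocadherins had an adjusted p below 0.05, against 0.0% of all genes, and none had an unadjusted p below 0.05, where 2.12% of all genes had one, and 0.907% of the genes with a signal above background. With the methods' t-test, run gene by gene on the same values, 2 of the 29 had an unadjusted p below 0.05, against 4.10% of all genes, and 0 had an adjusted one. C6orf141 itself, with a difference of 3.46 (standard error 0.32), had an adjusted p of 0.215 in limma, so a missing adjusted call says little here. The differences of the protocadherins ran from −0.65 to 0.40 on the log2 scale, with 15 positive and 14 negative. Their median was 0.02, with a median over all genes of −0.0005 and a median standard error of 0.24 for a single member. The smallest adjusted p of any member was 1.00 in limma.

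Among the protocadherins outside the clusters, PCDH1 and PCDH7 had signals far above the background level, and both belong to the delta-1 group. PCDH1 is an adhesion protein of epithelia, known from the airway. Its log2 signal was 11.92 and 11.58 in the control pair and 12.13 and 12.10 in the overexpression pair. Both overexpression arrays were above both control arrays, and the difference was 0.36 (standard error 0.24), with a 95% interval from −0.19 to 0.91. PCDH7, also called BH-protocadherin, had 9.53 and 9.37 in the control pair and 9.07 and 9.09 in the overexpression pair. Here both overexpression arrays were below both control arrays. The difference was −0.37 (standard error 0.22), a level 1.29-fold lower, with a 95% interval from −0.88 to 0.15. PCDH9, also of the delta-1 group and not above the background level, had 4.61 and 4.34 in the control pair and 4.26 and 4.24 in the overexpression pair. Its difference was −0.23, with a standard error of 0.23, while a dimmer row of the same gene had 0.31. Of the 5 delta-1 genes 4 had groups that did not overlap, against 29.4% of all genes. In 1 of them, PCDH1, the overexpression arrays were higher, and in 3, PCDH7, PCDH9 and PCDH11Y, they were lower. Only PCDH1 and PCDH7, which went opposite ways, were above the background level. Of the 5 delta-2 genes and of the 3 others, 0 had groups that did not overlap. The share over the 13 members outside the clusters was thus 30.8%, near that of all genes. The delta-1 count is over few genes and is given as a description.

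The delta-2 gene PCDH18 was close to the background level, with log2 signals of 5.84 and 6.36 in the control pair and 5.90 and 6.22 in the overexpression pair. Its groups overlapped, and the second array was the higher one in each. The difference was −0.04 (95% interval −0.66 to 0.59). The other delta-2 genes were not above the background level. They were PCDH8, PCDH10, PCDH17 and PCDH19, the last of them known from an X-linked epilepsy, and their means lay between 3.11 and 4.25. PCDH9 and PCDH11X of the delta-1 group had means of 4.36 and 5.20. PCDH12, known from endothelium, PCDH15, a part of the tip link of hair cells, and PCDH20 had means of 4.38, 4.09 and 3.54. PCDH11Y was counted and gets no level here, since it lies on the Y chromosome.

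In the beta cluster, PCDHB12, PCDHB8 and PCDHB14 had both overexpression arrays above both control arrays. PCDHB12 had log2 signals of 7.87 and 7.74 in the control pair and 8.06 and 8.27 in the overexpression pair, a difference of 0.36 (95% interval −0.17 to 0.89). PCDHB8 had 6.20 and 6.43 in the control pair and 6.66 and 6.76 in the overexpression pair. Its difference of 0.40 was the largest positive one among the members (95% interval −0.13 to 0.93). PCDHB14 had 5.97 and 5.89 against 6.09 and 6.17, a difference of 0.19 (95% interval −0.32 to 0.71). PCDHB13, whose promoter is nearly that of PCDHB8, had 6.28 and 6.06 in the control pair and 6.21 and 6.56 in the overexpression pair. Its groups overlapped, and its difference was 0.22 (95% interval −0.34 to 0.78).

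PCDHB7 was the beta gene with both overexpression arrays below both control arrays. Its log2 signal was 6.30 and 6.56 in control cells and 6.11 and 5.91 under overexpression, a difference of −0.42 (95% interval −0.97 to 0.12). PCDHB9 had 7.59 and 7.41 in the control pair and 7.05 and 7.60 in the overexpression pair. Only overexpression array 1 was low, and the difference was −0.18 (95% interval −0.78 to 0.43). PCDHB16 had 5.99 and 6.59 in the control pair and 6.42 and 6.23 in the overexpression pair, so that the control values enclosed the others, with a difference of 0.03 (95% interval −0.60 to 0.67).

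Over all 29 members, 8 had groups that did not overlap, 4 with both overexpression arrays above the control arrays and 4 below. These 8 are 27.6% of the members, against 29.4% of all genes, with 14.3% above and 15.1% below. The share over all 29 protocadherins was thus near that of all genes. Among the 12 members above the background level, 4 had both overexpression arrays above the control arrays, 2 had both below, and 6 overlapped. For all genes above that level, 27.7% had groups that did not overlap. Among the 17 members not above it, 2 had both overexpression arrays below the control arrays and 15 overlapped. Beside these stands the share of 29.4% for all genes at any signal. Both parts hold few genes, and this split was not tested.

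**Figure D3:**
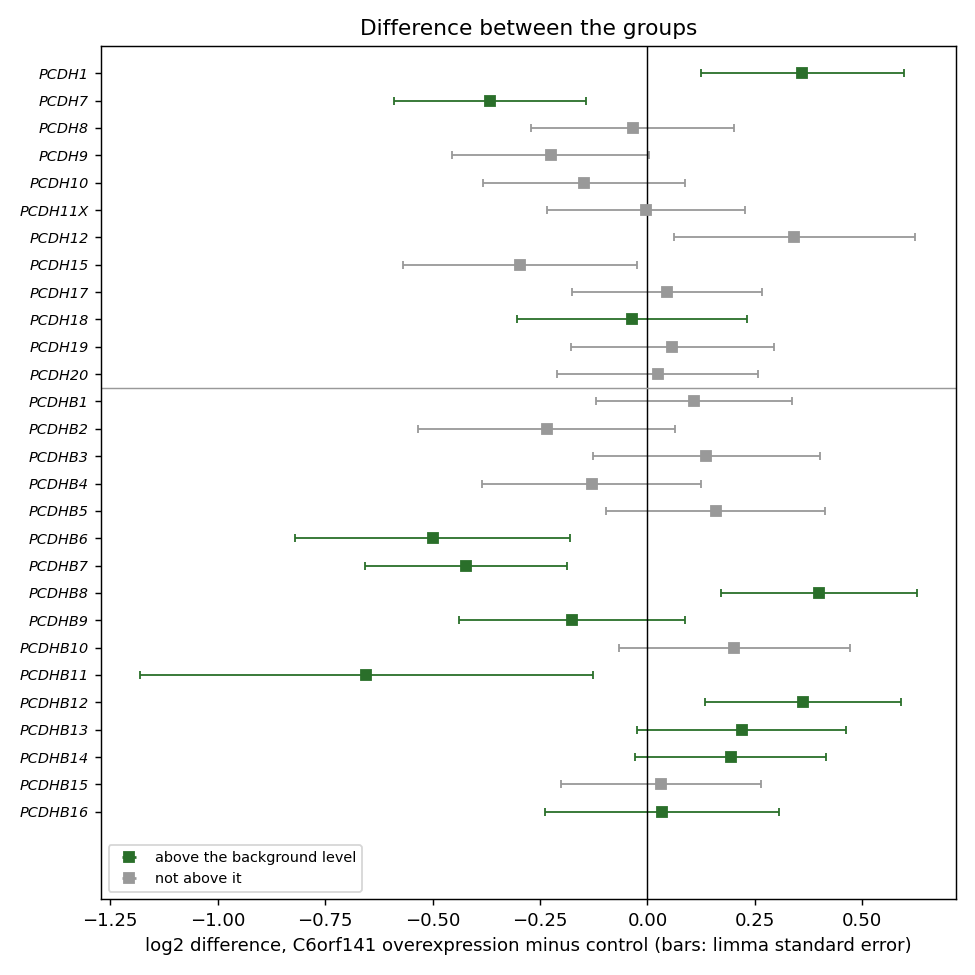
Log2 difference between C6orf141 overexpression and control for 28 protocadherin genes, with bars for limma's standard error and n = 2 arrays per group. Green squares are genes above the background level, and the bar of PCDHB11, with a standard error of 0.53, is the longest.

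PCDHB11 stood apart from the other members by its spread between arrays of the same group. Its log2 signal was 8.19 and 9.97 in the control pair and 8.10 and 8.75 in the overexpression pair. Control array 2 was the high one, by 1.22 above the next highest array, and control array 1 lay within the range of the overexpression arrays. The gap between the control arrays was 1.78, or 3.42-fold. The gap between the overexpression arrays was 0.64, or 1.56-fold. A gap as large as the former between the control arrays was found for 23 of the 33616 genes, or 0.0684%, and for 19 of the 16214 genes above the background level, PCDHB11 included in each. PCDHB11 was picked for this gap, so these counts describe it and test nothing.

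The difference of PCDHB11 between the groups rested on control array 2. With all arrays it was −0.65 (standard error 0.53, 95% interval −1.87 to 0.57). It was 0.23 without control replicate 2 and −1.54 without control replicate 1. Since PCDHB11 was picked for the gap between these control arrays, both values are descriptions. The genes on either side of it in the cluster, PCDHB10 and PCDHB12, had gaps of 0.35 and −0.12 between control array 2 and control array 1. PCDHB11 was the only protocadherin over 2-fold apart between the control arrays, against 2.47% of all genes and 2.73% of the 16214 with a signal above background. Between the overexpression arrays it was 0 of 29, against 0.934% of all genes, and 0 of the 12 members above the background level, against 0.265% of all genes above it.

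PCDHB6, PCDHB2 and PCDHB16 followed with gaps over 1.5-fold between the control arrays, a size that 15.3% of all genes reached. PCDHB6 had log2 signals of 6.56 and 5.67 in the control pair and 5.72 and 5.52 in the overexpression pair. Control array 1 alone was high, 1.86-fold above control array 2, which is the opposite of PCDHB11. The difference between the groups was −0.50 (95% interval −1.24 to 0.24), and it went to −0.05 without control replicate 1 and to −0.95 without control replicate 2. PCDHB2 had the same form, with 6.16 and 5.36 in the control pair against 5.50 and 5.55, and was not above the background level. Without control replicate 2 its difference was −0.63, against 0.17 without control replicate 1. Of the 16 beta genes, 11 were lower on control array 2 than on control array 1, and 5 were higher. Over all genes it was 17440 of 33616 that were lower there. Among the 9 beta genes above the background level, 5 were lower and 4 higher on control array 2. Of the 16214 genes above that level, 9219 were lower.

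**Figure D4:**
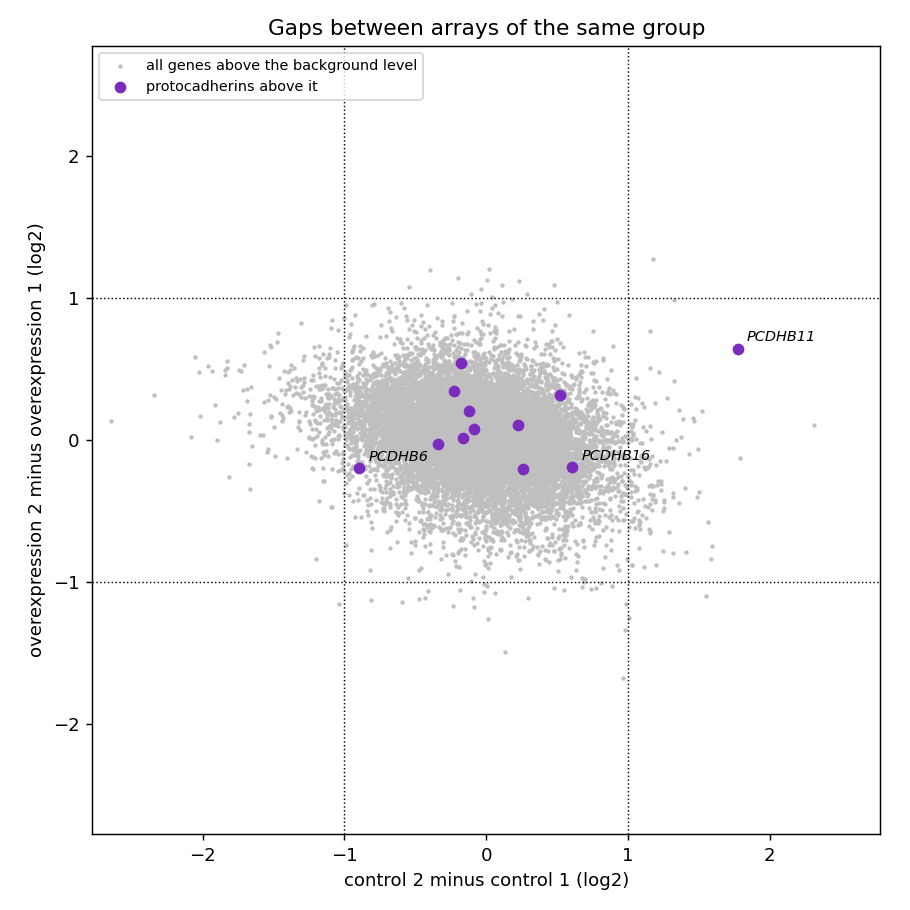
Gap between the overexpression arrays against the gap between the control arrays, both as replicate 2 minus replicate 1 on the log2 scale, for genes above the background level. Grey points are all such genes, purple points are the 12 protocadherins among them, dotted lines mark 2-fold, and PCDHB11 lies at 1.78 and 0.64.

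Rows of the clusters that carry no single coding symbol were read beside the members. The alpha cluster was represented by 1 row with 16 symbols, which had log2 signals of 4.65, 4.42, 3.81 and 4.47, all below the background level. No member came from the alpha or gamma clusters, and gamma coding genes are not analysed here. Of the beta pseudogenes, PCDHB18P had 6.95 and 6.95 in the control pair and 7.30 and 7.38 in the overexpression pair. PCDHB19P, its neighbour, had 5.89 and 5.53 against 5.19 and 5.30 and had a mean of 5.48, below the background level. The groups of PCDHB17P overlapped, with a difference of −0.0075 and a mean below the background level. The pseudogene PCDH8P1, named after a gene outside the clusters, also had groups that overlapped, with a difference of 0.10. In the gamma cluster, PCDHGB8P was above the background level and its groups overlapped too, with a difference of −0.13. PCDHGB9P had 6.90 and 6.96 in the control pair and 6.56 and 6.38 in the overexpression pair, a difference of −0.46 (unadjusted p = 0.0755 and adjusted p = 1.00 in limma).

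Genes that act with protocadherins were read from 4 lists. All 18 chromatin regulators of the clusters were above the background level, and 0 passed an unadjusted p below 0.05 in either direction, against 2.12% of all genes. Their median difference was −0.03. CTCF, which binds the promoters of the clusters, had log2 signals of 11.51 and 11.84 in control cells and 11.50 and 11.44 under overexpression. The largest differences were −0.30 for MAU2, a cohesin loader, and −0.24 for WAPL, which releases cohesin. Of the 6 measured genes of the ADAM10 and γ-secretase proteases that cut protocadherins, all were above the background level and 0 passed. NCSTN and PSENEN, both subunits of γ-secretase, had differences of 0.40 and 0.38, and the median was 0.15. The groups of PSENEN overlapped, with 13.99 and 13.30 in the control pair and 13.99 and 14.05 in the overexpression pair. The median signal of this list was 12.30 and 11.85 in the control pair and 12.44 and 12.49 in the overexpression pair.

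Of 15 measured intracellular partners 14 were above the background level and 0 passed, with a median difference of −0.02. WASF3, a member of the WAVE complex that protocadherin tails can recruit, had 0.38, and the kinase TAOK2 had 0.31. PTK2B, a focal adhesion kinase known to bind protocadherin tails, had log2 signals of 9.73 and 8.07 in the control pair, and the overexpression arrays lay between them at 8.89 and 9.08. Of 17 measured cadherin superfamily genes outside the classical cadherins, 7 were above the background level, 1 passed upward and 0 downward, with a median difference of 0.12. Of all genes 2.12% passed in either direction, so a single call among 17 is no result about the list. The gene that passed was CDH23, the partner of PCDH15 in the tip link, with 3.95 and 3.73 in the control pair and 4.42 and 4.47 in the overexpression pair (unadjusted p = 0.0293 and adjusted p = 1.00 in limma). All 4 values lay below the background level. Among those above it, the largest differences were 0.35 for CELSR1 and 0.20 for FAT2, the former a planar polarity cadherin and the latter a giant cadherin of squamous epithelium.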

How the data were processed

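The authors deposited 1 gene-level log2 value per transcript cluster and array, made with Expression Console per the labels, and Partek is named in the submitters' processing notes. The sources used here state neither the algorithm and its normalization nor the versions and the array's genome build. Log2 values were used as deposited. Of 138745 rows, 2995 array controls were left out. Symbols were updated by gene number through RefSeq (GRCh38.p14), which left 33616 genes.

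All 135750 other rows entered 1 two-sided limma fit (version 3.58.1, R 4.3.3), and p-values were adjusted after Benjamini and Hochberg over the 33616 genes, with a threshold of 0.05. The steps were tested on simulated data. The number of arrays limits the precision. The members and lists were chosen with earlier results of these data known. Every member above the background level, the 3 on either side of it, and those with large array gaps were named, and from each list any gene that passed and the 2 largest differences above background. Other genes named were chosen after their values were seen. The alternatives were quantile normalization, centring, trend and robust settings, the mean of rows and a t-test. That t-test is named in the study's statistics section, with no statement that it was used on the arrays (the methods' t-test). Others were a filter at the background level, adjustment over all rows, a replicate block and leaving out arrays. Some list genes are not analysed here.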

Additional observations from a re-analysis of the deposited data

Results flagged for a closer look

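The pseudogene PCDHB18P is not among the 29 genes compared, and both of its overexpression arrays lay above both of its control arrays. The difference was 0.39 on the log2 scale (standard error 0.22), with an unadjusted p of 0.116 and an adjusted p of 1.00 in limma. Of all genes, 14.3% had both overexpression arrays above both control arrays. Only rows above the background level with the higher values under overexpression were flagged. PCDHGB9P, also above that level, had both overexpression arrays below both control arrays, with a difference of −0.46 (standard error 0.22). Of all genes, 15.1% went that way.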

How the results depend on the processing

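Each group had 2 arrays, which limits the precision, and 17 of the 29 protocadherins had a mean signal within the range of most olfactory receptor genes. Keeping only genes above the background level, or adjusting over all rows, could not change an unadjusted p. Members at an unadjusted p below 0.05 were 0 in the main analysis. They were also 0 under quantile normalization, centring, trend and robust settings, the mean of rows and the replicate block. They were 2 with the methods' t-test, PCDH7 and PCDH11Y, where 4.1% of all genes had one. With 1 array left out, the difference of PCDHB11 was −1.54 without control replicate 1. Without control replicate 2 it was −0.63 for PCDHB2 and −0.95 for PCDHB6. The cause was not tested. In such fits the array left alone was taken to scatter as much as the full pair, so no calls are counted from them. No member had an adjusted p below 0.05 under any of the settings that kept all arrays. The median difference, 0.02, ranged from −0.053 to 0.026 with 1 array left out. Members above the background level were 12, and 4 by the 95th percentile of the negative control rows. Members with a gap over 2-fold between the control arrays were 1, PCDHB11, and 4 at 1.5-fold. With 1 array left out, the sign turned for 7 of 15 named members. Their ranges were −0.30 to 0.22 for PCDH18, −0.63 to 0.17 for PCDHB2, −0.36 to 0.10 for PCDHB4, −0.45 to 0.10 for PCDHB9, −0.0498 to 0.45 for PCDHB10, −1.54 to 0.23 for PCDHB11 and −0.27 to 0.34 for PCDHB16.

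Same-numbered arrays of the 2 groups showed no shared deviation (r = −0.11 across all genes and −0.27 across those above the background level, which are not independent). The replicate block gave 0 members at an unadjusted p below 0.05, with a median of 0.02, and 628 of all genes against 711. Crossed pairs, chosen after seeing the data, gave 0 members and 756 genes.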
